A study of Mustela putorius furo and Mus musculus with 4 samples.

Results

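The RTL genes, LDOC1, PEG10 and ARC are mammalian genes that descend from the Gag gene of ancient retrotransposons. 9 of them were looked up by symbol in cultured ferret and mouse astrocytes (Rtl1, Rtl3, Rtl4, Rtl5, Rtl6, Rtl9, Ldoc1, Peg10 and Arc), among 14584 gene symbols with ferret values and 55139 with mouse values. All 9 had mouse values, and 6 had values in both species, among the 13373 symbols that the species shared when case was ignored. The set was chosen by the difference in FPKM between ferret and mouse in these same libraries, as it was proposed with that difference known. The differences of its members are therefore given as a description, and no test is given for them.

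RNA was sequenced from 2 libraries of ferret astrocytes and 2 of mouse astrocytes, with no treatment group in either species. The ferret cells (Mustela putorius furo) came from cortices of postnatal day 1, and the mouse cells from cortices of ICR pups of postnatal day 1 to 3. Mixed glia were grown for 14 days with 10% serum, shaken to remove loosely attached cells, replated, and kept without serum for the last 4 days. The serum-free medium held heparin-binding EGF-like growth factor, N-acetyl cysteine, progesterone and putrescine, among other supplements. The cells of 1 ferret pup filled 4 flasks, whereas 4 mouse pups were pooled in 1 flask, so the duplicates may not be separate animals, and the spread between them may be technical. Levels are FPKM, which corrects the fragments of a gene for the length of its exons and for all fragments mapped in that library. Differences are ferret minus mouse means of log2(FPKM + 1), a scale that understates the change of low genes.

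The Gag protein of a retrovirus or retrotransposon assembles into the particle that carries its RNA. Genes derived from it have lost the ability to transpose and have been kept by selection as host genes. Peg10, Rtl1 and Ldoc1 are known for their roles in the placenta, Arc for the strength of synapses, and Arc and Peg10 proteins can still form particles that enclose RNA. Rtl5 and Rtl6 proteins have been described in mouse microglia, where they act in the innate response.

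In the mouse genome (GRCm38, GENCODE annotation), 5 of the 9 genes lie on chromosome X, and 7 of the 9 have their whole coding sequence in 1 exon. Rtl5 is at chrX:102066544-102071304 on the minus strand and encodes 599 residues. Ldoc1 is at chrX:61709497-61710955 on the plus strand, a gene of 1 exon that encodes 151 residues. Rtl4 spans 433505 bp at chrX:144688907-145122411 on the plus strand, and its 304 residues are encoded in 1 of its 7 exons. Rtl3 (chrX:106837082-106840644, minus strand, 553 residues) and Rtl9 (chrX:143099594-143104297, plus strand, 1367 residues) complete the X-linked genes. The others are Rtl6 (chr15:84553398-84557823, minus strand, 243 residues), Arc (chr15:74669083-74672570, minus strand, 396 residues), Rtl1 (chr12:109589193-109600330, minus strand, 1744 residues) and Peg10 (chr6:4747306-4760517, plus strand, 1005 residues). The coding lengths therefore ran from 453 bp in Ldoc1 to 5232 bp in Rtl1.

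A Gag nucleocapsid binds RNA through zinc knuckles, short stretches in which 3 cysteines and 1 histidine hold a zinc ion. A search of the annotated mouse reading frames for this spacing (2 residues between the first cysteines, 4 before the histidine and 4 before the last cysteine) found it in 3 of the 9 genes. The coding stretches of these 3 genes are shown, as the only part of Gag that was searched for. Each is 42 bases, read 5′ to 3′ on the coding strand, and capitals mark the 4 codons of the cysteines and the histidine. They lie at chrX:106838047-106838088 (minus strand, residues 523 to 536 of Rtl3), chrX:145120415-145120456 (plus strand, residues 278 to 291 of Rtl4) and chr6:4755256-4755297 (plus strand, residues 346 to 359 of Peg10), all within coding exons.
Rtl3: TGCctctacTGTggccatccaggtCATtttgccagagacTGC
Rtl4: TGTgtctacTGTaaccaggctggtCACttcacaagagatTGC
Peg10: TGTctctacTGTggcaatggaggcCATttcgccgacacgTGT
Rtl3 and Rtl4 had the same base at 30 of the 42 positions, Rtl3 and Peg10 at 29, and Rtl4 and Peg10 at 24. In Rtl5, Rtl6, Rtl9, Ldoc1, Rtl1 and Arc these letters were not found, which says only that this spacing is not in the annotated frame.

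Rtl5 and Ldoc1 were the most abundant members in ferret astrocytes and were at or below 1 FPKM in mouse astrocytes. Rtl5 was at 98.5 and 105 FPKM in the ferret libraries and at 0.836 and 0.502 FPKM in the mouse libraries. Its means were 102 ± 4.60 FPKM in ferret and 0.669 ± 0.236 FPKM in mouse (SD, n = 2 each), a ratio of 152, and its log2 difference was 5.95 ± 0.22 (SD of the difference between single libraries). This difference ranked 10 from the highest among 10204 genes with a mean of at least 1 FPKM in a species. In ferret astrocytes 97.5% of the shared symbols had a lower level than Rtl5, against 25.8% in mouse astrocytes.

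Ldoc1, which encodes a small Gag-derived protein needed for the maturation of placental cells, was at 52.2 and 50.2 FPKM in the ferret libraries. It was listed at 0 in mouse replicate 1 and at 0.0561 FPKM in replicate 2. The log2 difference was 5.67 ± 0.07, rank 11 of the 10204 genes, next after that of Rtl5. No ratio to values this near 0 is given, because a value of exactly 0 may reflect an estimate that failed. The level of Ldoc1 was above that of 93.2% of the shared symbols in ferret and of 11.9% in mouse, so that Rtl5 and Ldoc1 both stood high among ferret genes and low among mouse genes.

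Rtl6 was the member with the highest level in mouse astrocytes. It was at 19.9 and 22.0 FPKM in ferret and at 3.70 and 3.53 FPKM in mouse, means of 20.95 ± 1.48 and 3.61 ± 0.125 FPKM (SD, n = 2 each). The ratio of the means was 5.80 and the log2 difference 2.25 ± 0.10, rank 301 of 10204. Rtl6 alone among the members passed the filter of 1 FPKM in both species.

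Arc, the activity-regulated gene whose protein acts at synapses, was at 5.53 and 5.30 FPKM in ferret and at 0.112 and 0.127 FPKM in mouse. Its means of 5.41 ± 0.161 and 0.120 ± 0.0109 FPKM (SD, n = 2 each) gave a ratio of 45.2 and a log2 difference of 2.52 ± 0.04. Rtl4, which mouse knockout work has linked to behaviour, was at 2.44 and 1.85 FPKM in ferret, at 0.0183 FPKM in mouse replicate 1 and listed at 0 in replicate 2. Its log2 difference was 1.63 ± 0.19. In ferret astrocytes 52.5% of the shared symbols had a lower level than Arc, and 38.5% a lower level than Rtl4. Both genes were close to 0 in mouse astrocytes, and their libraries did not overlap between species.

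Rtl9, the longest of the X-linked reading frames, was near 0 in both species. It was at 0.0178 and 0.0278 FPKM in ferret and at 0.0300 and 0.0562 FPKM in mouse, a log2 difference of −0.03 ± 0.03. The 2 ferret values lay under the 2 mouse values, but the difference was about as large as the spread between duplicates.

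Rtl1, Rtl3 and Peg10 had no ferret value under these symbols, and none of their older symbols gave one, so the ferret level of these genes is missing here. All 9 symbols are in the ferret gene table of RefSeq, which belongs to another assembly than the one used for these values. In mouse astrocytes Peg10 was at 3.14 and 3.23 FPKM (mean 3.19 ± 0.0636, SD, n = 2), close under Rtl6. Rtl1 was at 0.0574 and 0.0478 FPKM and Rtl3 at 0.0740 and 0.00881 FPKM. Peg10 was thus the only one of the missing genes with a clear level in the mouse libraries.

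**Figure D1:**
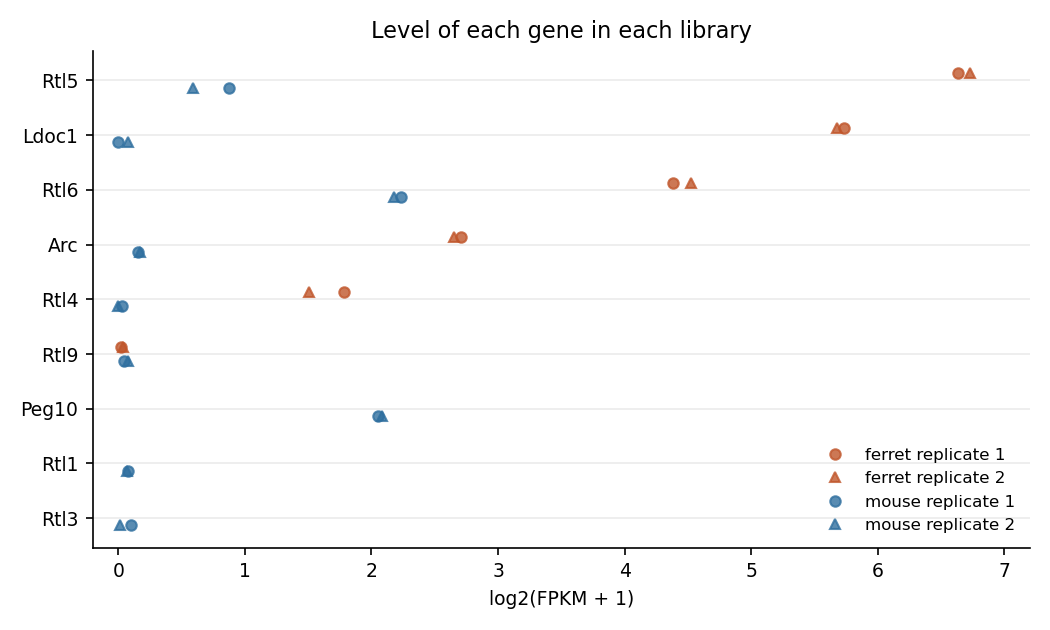
The level of the 9 genes in each library, as log2(FPKM + 1) on the horizontal axis, with orange points for the 2 ferret libraries and blue points for the 2 mouse libraries. Rtl5, Ldoc1, Rtl6, Arc and Rtl4 lie to the right in ferret, Rtl9 lies near 0 in both, and Peg10, Rtl1 and Rtl3 have mouse points only.

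In all 6 members with values in both species the duplicates of one species lay apart from those of the other, 5 of them higher in ferret. Of all 13373 shared symbols, 86.1% were likewise without overlap, and 33.2% had both ferret libraries above both mouse libraries. Since the choice of the members used this difference, nothing is read from these counts. Of the 5 members past the filter, Rtl5, Ldoc1, Arc and Rtl4 passed only through their ferret level. For scale, limma called 1336 of 10204 genes higher in ferret (13.1%) and 3069 lower (30.1%), where a call needed a log2 difference above 1 in size and an adjusted p (Benjamini-Hochberg) under 0.05.

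The order of the levels differed between the species. In ferret it was Rtl5, Ldoc1, Rtl6, Arc, Rtl4 and Rtl9, and the libraries of neighbours in this order did not overlap. In mouse it was Rtl6, Peg10, Rtl5 and Arc, without overlap, followed by Rtl1, Rtl9, Rtl3, Ldoc1 and Rtl4, all under 0.1 FPKM, where each gene overlapped the next. Added together, the 6 members reached 179 and 184 FPKM in ferret but 4.70 and 4.27 FPKM in mouse. That was 0.0785% and 0.0779% of the shared symbols' sum in ferret and 0.00156% and 0.00138% in mouse.

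The scale of the libraries bears on every difference. The FPKM of all shared symbols added up to 227391 and 236543 in ferret and 300465 and 308121 in mouse, and the median log2 difference of the tested genes was −0.35. After the libraries were rescaled to the mean of their sums this median was −0.01, and after quantile normalization it was 0.06. The share of the called genes that were higher in ferret was 30.3% as deposited, 46.9% rescaled and 50.8% after quantile normalization. Rtl5, Ldoc1, Rtl6, Arc and Rtl4 were higher in ferret and Rtl9 lower under every setting tried. This is no test of direction, because the members were chosen by this difference and several settings could not alter it. The values of Rtl9 were near 0 in all libraries, so its direction is not read. Each species was quantified on its own gene models, so that species, annotation and culture cannot be told apart, and the lengths of the gene models behind the FPKM values were not used here.

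**Figure D2:**
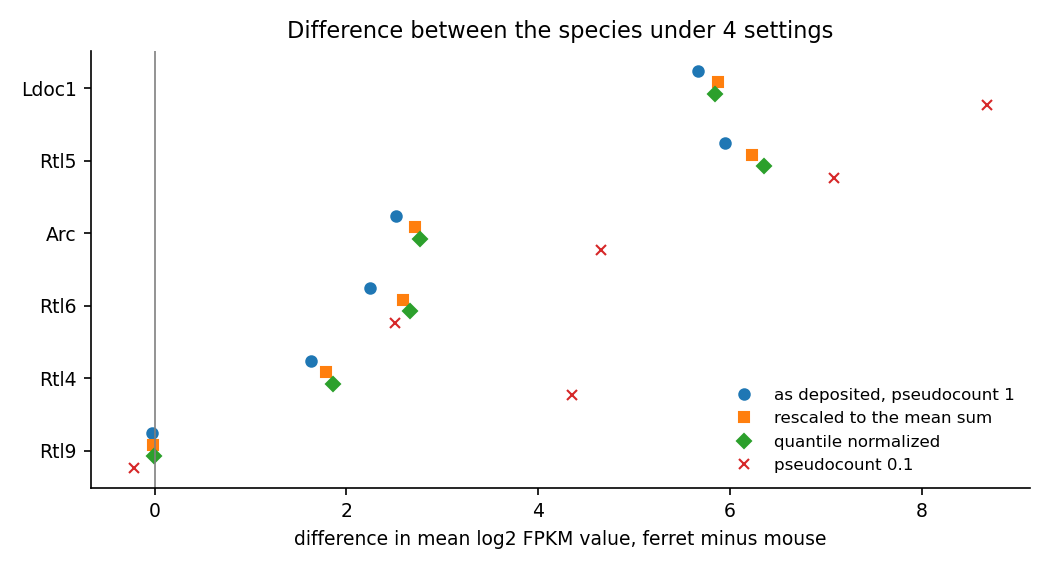
The ferret minus mouse difference of the mean log2 value on the horizontal axis for the 6 genes with values in both species, under 4 settings: values as deposited with 1 added, rescaled to the mean library sum, quantile normalized, and with 0.1 added. The smaller added value moves Ldoc1 from 5.67 to 8.68 and Arc from 2.52 to 4.65, and no gene changes side.

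The remaining Gag-derived genes were examined in a list of 20, with the PNMA family, the RTL genes outside the set, Nynrin and Asprv1. Nynrin and Asprv1 belong to neither family, and a Gag origin is not claimed for them. Under their current symbols 7 had a ferret value, 14 a mouse value and 5 both, and all 5 passed the filter. 3 of them were called higher in ferret, 1 (Nynrin) was called lower and 1 was not called, beside 13.1% and 30.1% of all tested genes. The median log2 difference of the 5 was 1.84, beside −0.35 for all tested genes.

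Zcchc12, a zinc-knuckle protein of the PNMA family, was at 10.7 and 11.3 FPKM in ferret and 0.836 and 0.918 FPKM in mouse. Its log2 difference was 2.68 (SE 0.0763, limma adjusted p = 6.53e-10). Moap1, whose protein binds the apoptosis regulator BAX, was at 41.1 and 46.8 FPKM in ferret and 6.37 and 6.91 FPKM in mouse, a log2 difference of 2.56 (SE 0.0782, limma adjusted p = 1.01e-09). Pnma2, a neuronal antigen of paraneoplastic disease, was at 3.93 and 3.45 FPKM in ferret and 0.297 and 0.325 FPKM in mouse, a log2 difference of 1.84 (SE 0.0826, limma adjusted p = 1.42e-08). These 3 genes were higher in both ferret libraries than in either mouse library, and were also called after rescaling and quantile normalization.

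Nynrin, which carries sequence of retroviral origin, went the other way, at 1.88 and 1.95 FPKM in ferret and 6.18 and 6.04 FPKM in mouse. Its log2 difference was −1.29 (SE 0.0740, limma adjusted p = 8.66e-08), but it was −0.99 after rescaling and −0.87 after quantile normalization, short of the limit of 1. Ccdc8, at 1.70 and 1.47 FPKM in ferret and 2.92 and 3.22 FPKM in mouse, had a log2 difference of −0.66 (limma adjusted p = 3.97e-05) and was not called. Members of the list thus lay on both sides of 0.

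Several relatives had values in 1 species only. In mouse, Rtl8a was at 49.0 and 53.0 FPKM, Rtl8b at 56.3 and 58.8 FPKM and Rtl8c at 38.8 and 38.3 FPKM. These 3 genes are close copies on chromosome X (339, 339 and 336 coding bases), so reads may have been split among them and their single values are uncertain. Each of them was above all 9 genes in both mouse libraries.

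Zcchc18, at 18.4 and 19.4 FPKM, and Rtl10, at 1.52 and 1.49 FPKM, also had mouse values only. Pnma1, Pnma3, Pnma5 and Asprv1 were at most at 0.244 FPKM in mouse and had no ferret value. In ferret, Pnma8a was at 12.5 and 12.4 FPKM and Pnma6a at 3.20 and 2.22 FPKM. Under its older symbol Pnmal1, the mouse Pnma8a was at 0.293 and 0.276 FPKM, and Pnmal2, the older symbol of Pnma8b, was at 3.38 and 3.68 FPKM in mouse. Pnma6e, Pnma6f, Pnma8b and Pnma8c gave no value under their current symbols in either species. The comparison therefore covers 5 of the 20 genes, and the RTL8 copies in ferret were not analysed here.

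**Figure D3:**
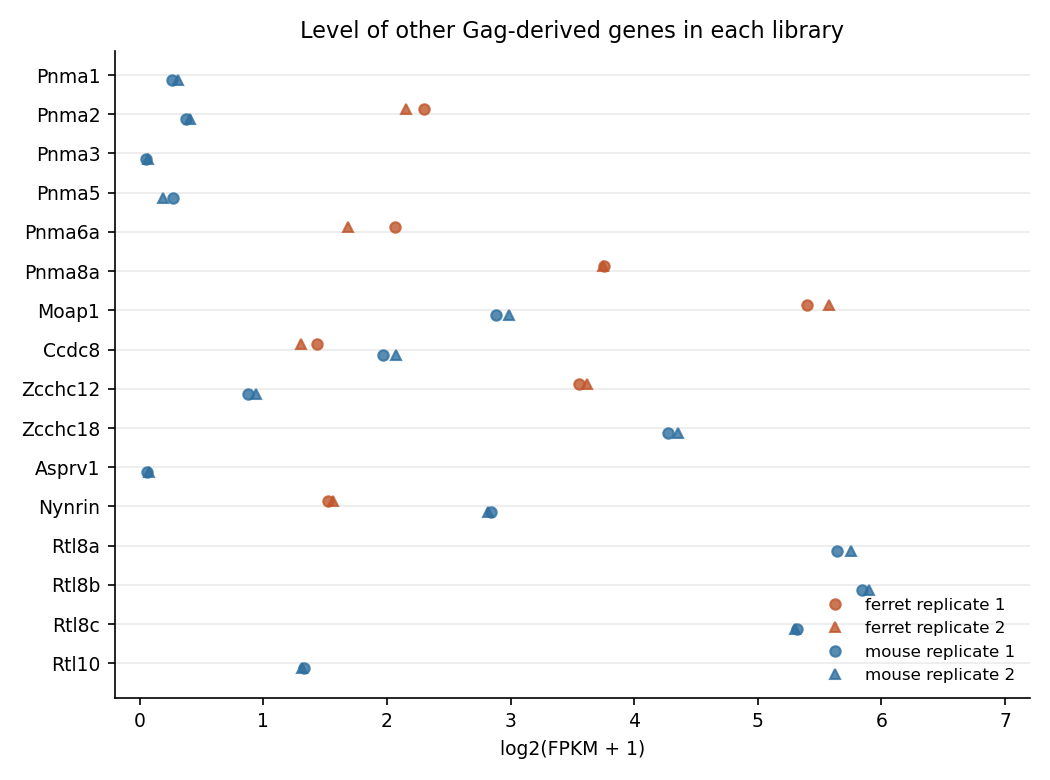
The level of 16 genes from the list of other Gag-derived genes, Nynrin and Asprv1 among them, in each library. The horizontal axis is log2(FPKM + 1), with orange points for ferret and blue points for mouse. Pnma2, Moap1 and Zcchc12 lie to the right in ferret, Nynrin and Ccdc8 to the right in mouse, and Rtl8a, Rtl8b and Rtl8c have mouse points only, at 38.3 to 58.8 FPKM.

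The chromosomal surroundings were compared next, taking the 2 nearest protein-coding genes on each side of each member in the mouse annotation and any that overlapped it. Of 37 neighbours 25 had values in both species and 19 were tested, with 3 called higher in ferret, 9 lower and 7 not called. The shares among all tested genes were 13.1% higher and 30.1% lower. Their median log2 difference was −0.64, beside −0.35 for all tested genes.

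Around Rtl5, 2 neighbours were called lower in ferret and none higher. Nhsl2 overlaps Rtl5 on the opposite strand and was at 0.667 and 0.739 FPKM in ferret and 3.04 and 3.42 FPKM in mouse, a log2 difference of −1.31 (limma adjusted p = 1.64e-07) that was −0.85 and no longer called after quantile normalization. Pin4, a prolyl isomerase gene 48143 bp away, was at 5.32 and 5.59 FPKM in ferret and 39.7 and 40.7 FPKM in mouse (log2 difference −2.67, limma adjusted p = 2.27e-10). Ercc6l, a mitotic helicase gene, was at 1.65 and 1.79 FPKM in ferret and 1.08 and 1.06 FPKM in mouse, and its log2 difference of 0.40 was under the limit of 1 for a call. The libraries were stranded, but whether the counting used the strand is not stated, so reads of Rtl5 and Nhsl2 may not be told apart where they overlap.

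Around Rtl6, Parvg (log2 difference −3.03, limma adjusted p = 2.72e-10) and Prr5 (log2 difference −2.71, limma adjusted p = 1.16e-09) were lower in ferret. Shisal1 was also called lower at −1.15, but at −0.98 without ferret replicate 2, at −0.95 after rescaling and at −0.68 after quantile normalization it was not. Amot, near Rtl4, was lower in ferret (log2 difference −2.12, limma adjusted p = 2.93e-09). Trpc5, a calcium channel gene 727 bp from Rtl4 on the opposite strand, stayed under the filter, at 0.443 and 0.355 FPKM in ferret and 0.00739 and 0.00616 FPKM in mouse. None of the tested neighbours of Rtl5, Rtl6 and Rtl4 was called higher in ferret, beside 13.1% of all tested genes. These neighbours were few and Trpc5 was not tested, so nothing is read from this.

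Arc and Rtl9 had neighbours on both sides of 0. Psca, which encodes a cell surface antigen and lies 42269 bp from Arc, was at 3.69 and 3.93 FPKM in ferret and 0.0408 and 0.0682 FPKM in mouse (log2 difference 2.19, limma adjusted p = 2.70e-09). Adgrb1, on the other side of Arc, was lower in ferret (log2 difference −1.49, limma adjusted p = 3.28e-08). Near Rtl9, which was itself near 0 in all libraries, Chrdl1, a BMP antagonist made by astrocytes, was at 64.6 and 63.1 FPKM in ferret and 7.59 and 9.61 FPKM in mouse. Its log2 difference was 2.76 (limma adjusted p = 1.88e-09), while Tmem164 was called lower (log2 difference −2.84) and Ammecr1 and Pak3 were not called. Sox3 alone among the neighbours of Ldoc1 had values in both species, at 0.176 and 0.344 FPKM in ferret and 0.308 and 0.218 FPKM in mouse, below the filter.

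**Figure D4:**
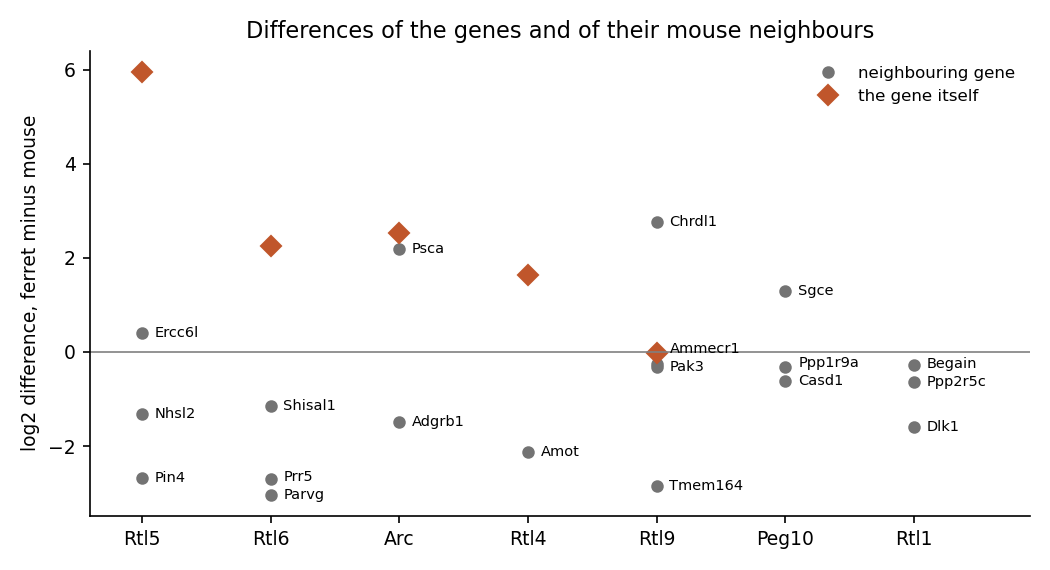
The log2 difference, ferret minus mouse, of each tested neighbour (grey points) and of the gene itself (orange diamonds) on the vertical axis, by gene on the horizontal axis. The diamond of Rtl5 lies at 5.95 above neighbours at 0.40, −1.31 and −2.67, and Psca lies close under Arc, at 2.19 beside 2.52.

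Rtl1 and Peg10 are imprinted genes, expressed from the paternal copy in the mouse within clusters on chromosomes 12 and 6. A list of 16 genes of both clusters had 11 with values in both species and 7 tested. Of these 1 was called higher in ferret, 2 lower and 4 not called, beside 13.1% higher and 30.1% lower of all tested genes. The median log2 difference was −0.44, beside −0.35 for all tested genes. Sgce, a sarcoglycan gene that starts 99 bp from Peg10 on the opposite strand and is imprinted with it, was at 74.8 and 77.0 FPKM in ferret and 29.0 and 31.4 FPKM in mouse. Its log2 difference was 1.30 (SE 0.0622, limma adjusted p = 2.19e-08). Sgce, which lies next to Peg10 in the mouse annotation, thus had a clear level in the ferret libraries. The ferret value of Peg10 itself is missing, and the order of these genes in ferret was not examined.

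Pon3, a lactonase gene of the Peg10 cluster, was at 0.784 and 0.575 FPKM in ferret and 19.2 and 19.0 FPKM in mouse (log2 difference −3.59, limma adjusted p = 1.89e-10). Dlk1, the paternally expressed Notch ligand relative beside Rtl1, was at 0.223 and 0.299 FPKM in ferret and 2.69 and 2.95 FPKM in mouse (log2 difference −1.60, limma adjusted p = 3.33e-08). In mouse, the maternally expressed noncoding RNAs of the Rtl1 cluster were at 123 and 102 FPKM for Meg3, 63.9 and 59.0 FPKM for Rian and 1.92 and 2.12 FPKM for Mirg, and Dio3 was at 0.791 and 0.568 FPKM. Rtl1 itself, which lies antisense to maternally expressed microRNA transcripts, was at 0.0574 and 0.0478 FPKM in the same libraries.

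Arc belongs to the immediate early genes, which are switched on within minutes of a stimulus. Of 24 such genes 23 had values in both species and 18 were tested. 4 were called higher in ferret, 5 lower and 9 not called, beside 13.1% higher and 30.1% lower of all tested genes. The median log2 difference was 0.45, beside −0.35 for all tested genes. After rescaling 7 were higher and 4 lower, beside 1954 and 2215 of all 10204 tested genes. After quantile normalization 8 were higher and 3 lower, beside 2107 and 2040 of all tested genes. The list therefore had called genes on both sides of 0.

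Fosl1, a partner of JUN in the AP-1 factor, was at 12.0 and 12.9 FPKM in ferret and 1.52 and 1.90 FPKM in mouse (log2 difference 2.32, limma adjusted p = 4.82e-09). Nr4a1, a nuclear receptor, was at 3.84 and 3.59 FPKM in ferret and 0.557 and 0.521 FPKM in mouse (log2 difference 1.62, limma adjusted p = 2.21e-08). Egr1, a zinc finger factor that can drive Arc, was also called higher in ferret (log2 difference 1.14, limma adjusted p = 8.91e-07), and is named here after its value was seen. Junb, also called higher, was at 18.2 and 19.2 FPKM in ferret and listed at 0 in both mouse libraries, and no ratio is given for it. Its call rests on those zeros, which may be failed estimates, since Dut, an enzyme gene that dividing cells need, was also listed at 0 in both mouse libraries.

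In the other direction, the phosphatase gene Dusp1 was at 2.697 and 2.498 FPKM in ferret and 17.96 and 16.77 FPKM in mouse (log2 difference −2.35, limma adjusted p = 1.30e-09). Maff (log2 difference −1.69, limma adjusted p = 5.70e-09) and Klf4 (log2 difference −1.52, limma adjusted p = 3.18e-08), both transcription factor genes, were lower as well. Fos, the archetype of the class and named for that reason, was at 10.5 and 10.0 FPKM in ferret and 11.9 and 9.65 FPKM in mouse, with overlapping groups (log2 difference −0.06, limma adjusted p = 0.579).

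**Figure D5:**
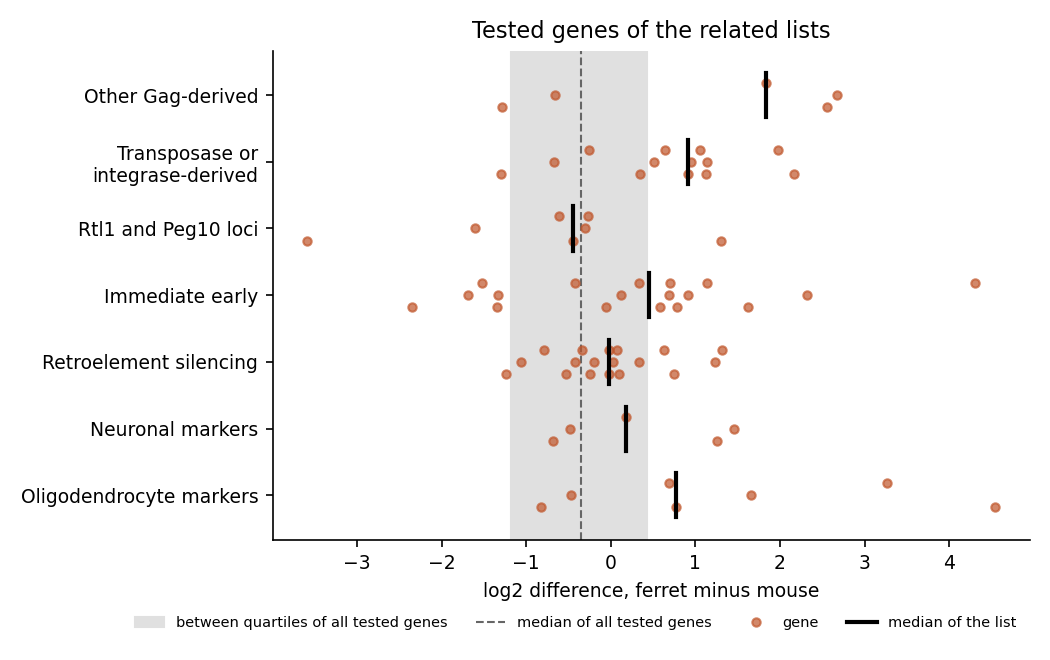
The log2 difference, ferret minus mouse, on the horizontal axis for each tested gene of 7 lists (points: other Gag-derived, transposase or integrase-derived, Rtl1 and Peg10 loci, immediate early, retroelement silencing, neuronal markers, oligodendrocyte markers), with the list's median as a black bar, the median of all tested genes as a dashed line at −0.35 and the range between their quartiles, from −1.18 to 0.42, in grey. The medians of these 7 lists run from −0.44 for the Rtl1 and Peg10 loci to 1.84 for the list of other Gag-derived genes, which includes Nynrin.

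Cell type markers moved with species as well, and these are bulk cultures, in which fewer cells of a type and less RNA per cell cannot be told apart. The counts of called markers below stand beside 13.1% higher and 30.1% lower of all tested genes. The astrocyte marker Gfap was at 1481 and 1522 FPKM in ferret and 1429 and 1546 FPKM in mouse, with overlapping groups. Of 11 astrocyte markers 1 was called higher in ferret, S100b, and 7 lower, among them the glutamate transporter Slc1a2, at 0.132 and 0.178 FPKM in ferret and 47.1 and 51.8 FPKM in mouse, and Apoe. After rescaling 2 were higher and 6 lower, and after quantile normalization 2 were higher and 5 lower. The transcript of Slc1a2 was therefore close to 0 in the ferret libraries, while that of Gfap was not. Slc1a3, also among the markers called lower as deposited, was at 84.4 and 76.6 FPKM in ferret and 177 and 185 FPKM in mouse.

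All 9 microglial markers with values in both species were called lower in ferret, and their summed level was 3.96 and 2.80 FPKM in ferret against 534 and 518 FPKM in mouse. Cx3cr1 was listed at 0 in both ferret libraries, and Itgam was at 0 and 0.00748 FPKM there. The part of microglia in the levels of Rtl5 and Rtl6 was not tested. The 7 meningeal fibroblast markers were also all lower in ferret, with sums of 122 and 108 FPKM against 1551 and 1528 FPKM.

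Of the neuronal markers 8 of 10 had values in both species and 5 were tested. Syt1 and Dcx were called higher in ferret (log2 differences 1.46 and 1.25) and none lower. Map2, Eno2 and Gap43 were not called, with log2 differences of −0.68, −0.48 and 0.19. The summed level of the 8 was 60.8 and 59.6 FPKM in ferret and 66.8 and 68.7 FPKM in mouse. It leaves out Stmn2, which was at 124 and 127 FPKM in mouse and had no ferret value. Gap43 and Map2 had the highest levels of the 8 in both species, so the sum says little of Dcx. Dcx was at 1.66 and 1.25 FPKM in ferret and 0.0150 and 0.0412 FPKM in mouse. Rbfox3, which marks neuronal nuclei, was at 0 and 0.0350 FPKM in ferret and 0.0667 and 0.0839 FPKM in mouse. The part of neurons in the Arc level was not tested.

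Oligodendrocyte lineage markers had log2 differences on both sides of 0. 8 of 9 had values in both species, with sums of 89.0 and 95.8 FPKM in ferret against 23.4 and 21.3 FPKM in mouse, but these leave out Olig1, at 107 and 117 FPKM in mouse and without a ferret value. 3 of the 7 tested were called higher and none lower, with log2 differences of −0.82 for Olig2 and −0.47 for Cspg4. Sox10, the glial transcription factor of that lineage, was at 26.3 and 30.9 FPKM in ferret and 0.231 and 0.304 FPKM in mouse. Mog, which marks mature oligodendrocytes, was at 0.279 and 0.381 FPKM in ferret and at 0.0946 FPKM and 0 in mouse. The part of such cells in the levels of Rtl5, Ldoc1, Rtl6, Rtl4 and Arc was not tested.

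The genes whose levels were most like those of Rtl5 and Ldoc1 were found by Euclidean distance over the 4 libraries on the log2 scale, among 13372 other shared symbols. Near Rtl5 were Agt, the angiotensinogen gene (distance 0.24), Psmd5 (0.38), Aldh1a3 (0.61) and Pygm (0.84). Agt was at 112 and 105 FPKM in ferret and 0.761 and 0.649 FPKM in mouse, within the range of Rtl5 in the mouse libraries. For Ldoc1 they were Nts, the neurotensin gene (distance 0.13), Ifi44l (0.19), Dut (0.44), Pdlim3 (0.57) and Pmp2 (0.87), with Nts at 48.5 and 50.2 FPKM in ferret and listed at 0 in both mouse libraries. Since 2 libraries of each species set the distance, it describes likeness of level and nothing further.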

How the data were processed

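Reads were aligned by the authors with STAR (version 2.7.0f) to the ferret and mouse genomes with Ensembl annotation, and they deposited 1 FPKM value per gene and library from Cufflinks (version 2.2.1), normalized to exon length and mapped fragments. The deposited FPKM values hold no counts, so no count test was run. Read counts and gene lengths that the study tabulates, held here in part and without the members, were not used. The values were joined by symbol without regard to case. For a symbol with several rows the row with the highest species mean was kept. Among the shared symbols, 7 had several ferret rows and 13 several mouse rows. In all there were 16853 ferret rows for 14584 symbols and 55257 mouse rows for 55139 symbols.

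Python (version 3.11.15) with pandas (version 2.3.3) set values to log2(FPKM + 1), and limma (version 3.58.1, R version 4.3.3, trended empirical Bayes) compared ferret with mouse over 10204 symbols whose species mean reached 1 FPKM in either species, after a test on simulated data. Calls needed a Benjamini-Hochberg adjusted p under 0.05 and a log2 difference above 1 in size. With 2 libraries a species, exact permutation of a single gene could not go under a two-sided p of 0.333. Alternatives were an added value of 0.1, no filter, rescaled sums, quantile normalization, summed rows, the replicate number as a block, and each library left out.

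The members and lists were chosen with earlier results of these data known. Named were all 9 members, the PNMA and RTL list, the 3 called genes with the largest difference in each direction of other lists, marker genes, neighbours, and the 5 symbols nearest to Rtl5 and to Ldoc1. Peg10, with no ferret value, had none. Any other gene named was chosen outside this rule. Not every gene that the rule covers is reported here. Mouse positions and sequences are those of GENCODE on GRCm38, the authors' build in another annotation release. A ferret genome was not used here.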

Additional observations from a re-analysis of the deposited data

How the results depend on the processing

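Of 130 values recomputed under alternatives, 113 stayed within the limits set for the reported value and 17 moved further. Direction was checked only for the members' differences, of which 0 changed it. These counts do not measure robustness. Without the filter, with summed rows or with the block, the members' differences could not change. With 1 library left out, their shift could not pass the limit, the SD of the difference. All 17 moves came with the added 0.1, rescaling or quantile normalization. With 0.1 added in place of 1, the log2 differences were 7.08 for Rtl5, 8.68 for Ldoc1, 2.50 for Rtl6, 4.65 for Arc, 4.36 for Rtl4 and −0.22 for Rtl9. After rescaling they were 6.23 for Rtl5, 5.88 for Ldoc1, 2.59 for Rtl6 and 2.71 for Arc, and after quantile normalization 6.35 for Rtl5, 5.85 for Ldoc1, 2.66 for Rtl6, 2.77 for Arc and 1.86 for Rtl4. Quantile normalization gave 2107 genes called higher in ferret and 2040 called lower, and rescaling gave 1954 and 2215. Leaving out each library in turn gave 5.81 to 6.10 for Rtl5, 5.63 to 5.70 for Ldoc1, 2.18 to 2.32 for Rtl6, 2.49 to 2.54 for Arc, 1.497 to 1.771 for Rtl4 and −0.05 to −0.01 for Rtl9, with 1316 to 1372 genes higher and 3049 to 3095 lower. The library left alone in its species is then assumed to vary like those of the other. Species share replicate numbers, but the libraries come from different animals, and deviations of same-numbered libraries correlated at 0.0099 across genes. With the replicate number as a block, 1342 genes were higher and 3072 lower, and no call of a listed gene changed. Depth was not taken from the FPKM values, so levels under 0.1 FPKM carry no interval, and lengths of the gene models were not compared.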

Other observations

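Genes derived from DNA transposases or integrases are another class of host genes of mobile-element origin. Of 21 listed, 16 had values in both species and 13 were tested, with 5 called higher in ferret, 1 lower and 7 not called. Of all tested genes, 13.1% were called higher and 30.1% lower. The median log2 difference of the list was 0.91, beside −0.35 for all tested genes. Pgbd5, a piggyBac-derived gene expressed in brain, was at 4.29 and 4.46 FPKM in ferret and 0.278 and 0.123 FPKM in mouse (log2 difference 2.17, limma adjusted p = 6.54e-09). Its relative Pgbd1 was at 7.30 and 7.62 FPKM in ferret and 1.16 and 1.12 FPKM in mouse (log2 difference 1.98, limma adjusted p = 4.27e-09). Tigd4 was called higher at 1.13. Zbed4, at 1.12, and Pogk, at 1.06, complete the count and were named after their values were seen. Pogk was not called without ferret replicate 2 (0.98) or without mouse replicate 1 (1.00). Zbed5 was lower in ferret, at 17.4 and 14.9 FPKM against 39.3 and 42.9 FPKM (log2 difference −1.30, limma adjusted p = 1.73e-07), but was not called after rescaling (−0.92) or quantile normalization (−0.90). Rescaling gave 7 higher and 0 lower, beside 1954 and 2215 of all 10204 tested genes. Quantile normalization gave 8 higher and 0 lower, beside 2107 and 2040 of all tested genes.

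Genes that silence retroelements act through DNA methylation, histone methylation and the HUSH complex. Of 22 listed, 18 were tested, 2 were called higher in ferret, 2 lower and 14 not called. All tested genes had 13.1% called higher and 30.1% lower. The median log2 difference of the list was −0.02, beside −0.35 for all tested genes. Tasor, a HUSH subunit, was at 15.4 and 13.6 FPKM in ferret and 5.62 and 4.83 FPKM in mouse (log2 difference 1.32, limma adjusted p = 2.63e-07). Uhrf1, which brings the maintenance methyltransferase to DNA, was at 14.4 and 14.3 FPKM in ferret and 5.50 and 5.57 FPKM in mouse (log2 difference 1.23, limma adjusted p = 5.71e-08). The histone methyltransferase genes Ehmt2 (log2 difference −1.24, limma adjusted p = 1.48e-07) and Suv39h1 (log2 difference −1.06, limma adjusted p = 2.64e-06) were lower in ferret. Neither was called after rescaling (−0.86 and −0.74) or quantile normalization (−0.84 and −0.65), and Suv39h1 was not called without ferret replicate 2 (−0.95) or without mouse replicate 2 (−0.99). The levels of retroelement transcripts themselves were not analysed here.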
